A study of Mus musculus with 10 samples.

Results

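The genes described here encode the laminin receptors of the cell surface and their close associates: the integrin α subunits Itga3, Itga6 and Itga7, the β subunits Itgb1 and Itgb4, dystroglycan (Dag1), the basal cell adhesion molecule Bcam and the tetraspanin Cd151. They were chosen by symbol, and all 8 were found among the 18407 genes of the deposited count table and passed the filter on low counts. The cells were NMC cells, a line of normal mouse cholangiocytes, the epithelium of bile ducts, kept for 6 days as double spheroids in a 3D matrix. In the laminin-rich group (5 libraries) the matrix was laminin and collagen I mixed 3:1 by volume, and in the collagen I group (5 libraries) it was collagen I at 1 mg/mL. No other agent was applied, both matrices contain collagen I, and all libraries come from the same line, so that the presence of laminin and a changed amount of collagen I cannot be told apart.

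Laminin receptors tie epithelial cells to the basement membrane. An integrin is a dimer of an α and a β subunit: α3, α6 and α7 each pair with β1 to bind laminins, while α6 also pairs with β4, whose long cytoplasmic tail connects to keratin filaments in hemidesmosomes. Dystroglycan binds the globular domains of laminin α chains through sugar chains on its extracellular part and links them to dystrophin or utrophin inside the cell. Bcam is an immunoglobulin-type receptor for laminin α5, and Cd151 is a membrane protein that associates with α3β1 and α6 integrins. The question the comparison addresses is how the surrounding matrix changes gene expression in cholangiocytes.

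Total counts ran from 4424725 to 7468219 per laminin-rich library and from 4913441 to 8129979 per collagen I library. The labelled cell type was checked against 13 cholangiocyte markers, whose summed level was 4320 to 5690 CPM (read counts scaled to a common library size) in laminin-rich libraries and 4270 to 6504 CPM in collagen I libraries. Krt8, Krt18 and Krt19 led that sum, whereas Krt7 was at 3.34 ± 1.62 CPM in laminin-rich matrix and 6.80 ± 3.98 CPM in collagen I (SD, n = 5 each), and Cldn4 was close to 0 in both. Each library carries a code letter in the labels whose meaning is not stated. Letters E (3 libraries) and F (2) occur only in the laminin-rich group and letters B (3) and D (2) only in collagen I, so effects of the letter and of the matrix cannot be told apart. In these bulk samples, fewer cells of a type and less RNA per cell cannot be told apart either.

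None of the 8 genes passed the test between the matrices, the quasi-likelihood F test of edgeR, adjusted by the Benjamini-Hochberg method over 10789 genes with a threshold of 0.05. Over all genes, 0.148% passed. The gene nearest the threshold was Itga7, which stood at 15.7 ± 3.81 CPM in laminin-rich matrix and 6.99 ± 1.76 CPM in collagen I (SD, n = 5 each). The other 7 genes differed by less than the spread between libraries, with log2 differences (laminin-rich minus collagen I) between -0.16 for Itga6 and 0.17 for Dag1. The median log2 difference was 0.03 over the 8 genes and 0.01 over all genes tested.

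**Figure D1:**
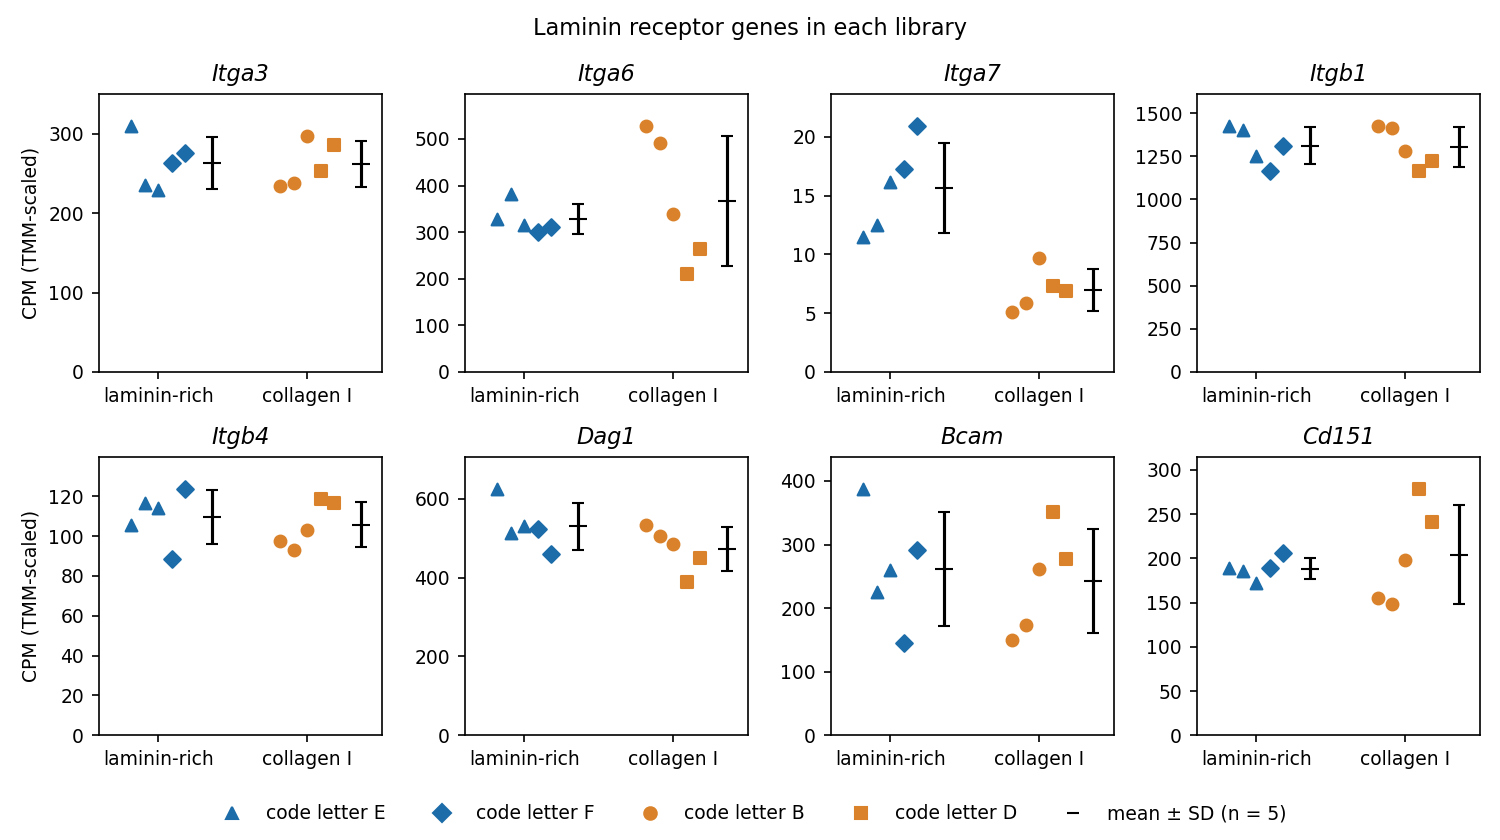
Level of each of the 8 genes (y axis, CPM with TMM-scaled library sizes, from 0) in the 5 laminin-rich and 5 collagen I libraries. Points are libraries with their code letter, black bars are mean ± SD; Itga7 is the one gene whose groups do not overlap, and Itga6 and Cd151 are spread more widely in collagen I than in laminin-rich matrix.

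Itga7 encodes the α7 subunit, best known as the laminin-binding integrin chain of skeletal and cardiac muscle. Its level in laminin-rich replicates 1 to 5 was 11.5, 12.5, 16.1, 17.2 and 21.0 CPM, against 5.08, 5.89, 9.73, 7.33 and 6.90 CPM in collagen I replicates 1 to 5. All 5 laminin-rich libraries lay above the highest collagen I library, replicate 3. Groups that do not overlap occurred in 3.23% of all genes tested, and laminin-rich matrix was the higher in 1.94%. The fitted difference was 2.22-fold, with a 95% interval of 1.60 to 3.07, or 1.15 on the log2 scale (SE 0.22, adjusted p = 0.0584 in edgeR). These levels rest on 69 to 115 reads per laminin-rich library and 33 to 80 reads per collagen I library, the fewest of the 8 genes.

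The Itga7 call depended on the model. Its adjusted p was 3.9e-04 in DESeq2, where 1.94% of all genes passed, and 0.0801 in limma-voom. With 1 surrogate variable in edgeR it was 0.0100, where 4.06% of all genes passed. After each library was corrected for a trend fitted to length and GC content, edgeR gave a log2 difference of 1.05 (SE 0.19, adjusted p = 0.0181), and 0.945% of all genes passed, while the median of the 8 genes was -0.0043. Without laminin-rich replicate 1, the lowest library of its group, the adjusted p was 0.0308 at a log2 difference of 1.25, and 0.591% of all genes passed. It did not pass without any other single library, where the adjusted p ran up to 0.184. The log2 difference stayed between 0.87 and 1.42 in the 38 alternatives, and its sign is fixed by groups that do not overlap.

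Markers of striated and smooth muscle, the tissue for which Itga7 is best known, were nearly absent. The 15 markers summed to 2.72 to 4.72 CPM in laminin-rich libraries and 4.09 to 7.17 CPM in collagen I libraries, and Myod1, Myf5, Myog, Myh8 and Lmod1 had no count in any library. Of the 9 Schwann cell markers, Sox10 and Foxd3 had no count, and the list summed to 157 to 183 CPM in laminin-rich libraries and 157 to 182 CPM in collagen I libraries, led by Pmp22, a membrane protein of myelin that other cells also make. Within those equal sums, Prx was at 26.0 ± 2.98 CPM in laminin-rich matrix and 18.1 ± 3.802 CPM in collagen I, Erbb3 at 34.98 ± 4.16 and 25.6 ± 6.23 CPM in the same order, and Pmp22 the other way at 59.8 ± 7.89 and 72.7 ± 4.00 CPM (SD, n = 5 each), none past the threshold. The 12 fibroblast and stellate cell markers summed to 661 to 825 CPM in laminin-rich libraries and 652 to 808 CPM in collagen I libraries, led by Fbln2. Among them, Pdgfra was at 9.30 ± 3.98 CPM in laminin-rich matrix and 4.01 ± 1.15 CPM in collagen I (log2 difference 1.20, adjusted p = 0.203 in edgeR), and Pdgfrb, below the filter, at 1.26 to 6.08 and 0.424 to 0.802 CPM in the same order. Dcn went the other way, at 3.47 ± 1.18 CPM in laminin-rich matrix and 8.10 ± 1.26 CPM in collagen I (log2 difference -1.20, adjusted p = 0.0697, and 0.0398 after the length and GC correction). The 9 hepatocyte markers summed to 136 to 185 CPM in laminin-rich libraries and 88.7 to 137 CPM in collagen I libraries, ranges that just overlapped. Hnf4a, Alb and Ttr led that sum and were each higher in laminin-rich matrix. They stood at 109 ± 27.5, 35.5 ± 16.7 and 11.8 ± 3.94 CPM there. In collagen I they stood at 80.0 ± 15.3, 18.8 ± 5.02 and 6.26 ± 4.48 CPM (SD, n = 5 each). Their log2 differences were 0.45, 0.91 and 0.95, and none passed. Apoa1, below the filter, went the other way, at 1.24 CPM in laminin-rich matrix and 2.31 CPM in collagen I, and Cyp2e1 had no count. The part of any of these markers in the Itga7 difference was not tested. The counts are per gene, so the splice forms of Itga7 and Itga6 cannot be told apart. In GENCODE M21 on GRCm38, Itga7 lies on chromosome 10 from 128933818 to 128958282, and its exons overlap those of Mettl7b on the opposite strand. Whether the counting used strand is not given, so the Itga7 level is uncertain to the extent that reads of Mettl7b were counted with it. The count table has no gene under the symbol Mettl7b, so its level could not be read.

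**Figure D2:**
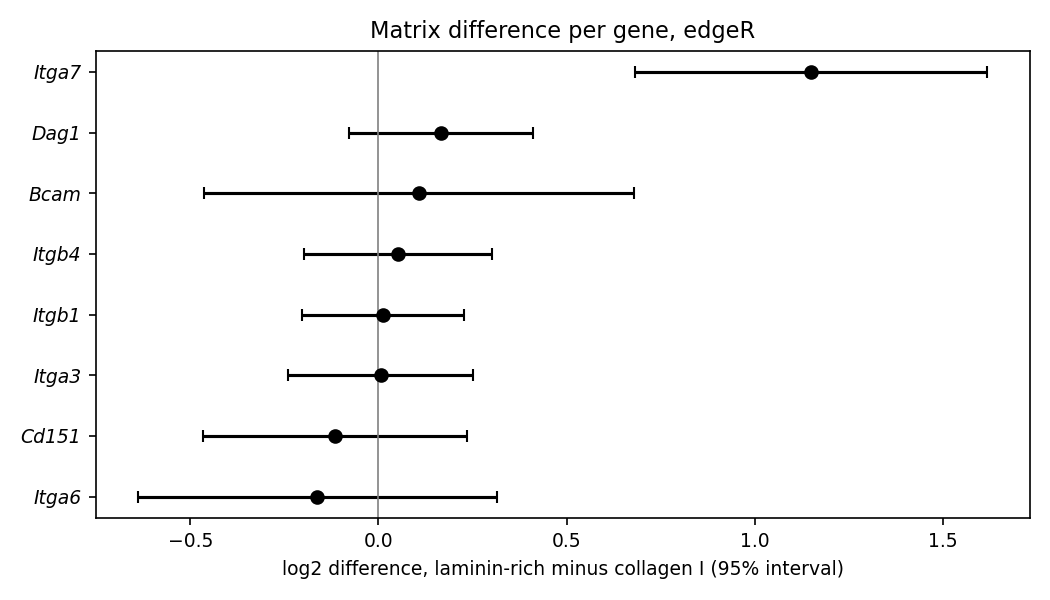
Log2 difference of each gene, laminin-rich minus collagen I (x axis), from edgeR, with points for the estimate and bars for the 95% interval. The interval of Itga7, 0.68 to 1.62, lies above 0, and those of the other 7 genes include 0; no gene passed after adjustment.

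The other α subunits did not follow Itga7. Itga3, the α3 subunit, which pairs only with β1, had 311, 236, 229, 264 and 276 CPM in laminin-rich replicates 1 to 5, against 235, 238, 298, 253 and 287 CPM in collagen I replicates 1 to 5. The groups overlapped almost completely, at means of 263 ± 33.0 and 262 ± 28.8 CPM for laminin-rich matrix and collagen I. The 95% interval of the difference, relative to collagen I, ran from -15.3% to 19.0% (log2 difference 0.01, SE 0.11, adjusted p = 0.989 in edgeR). The sign of this small difference turns under several scalings. Itga3 lies on chromosome 11 from 95044474 to 95076801.

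Itga6, the α6 subunit shared by the β1 and β4 receptors, varied more within collagen I than within laminin-rich matrix. It had 328, 382, 316, 300 and 311 CPM in laminin-rich replicates 1 to 5, against 529, 492, 339, 209 and 263 CPM in collagen I replicates 1 to 5. The laminin-rich libraries lay inside the range of the collagen I libraries, whose highest library was more than 2-fold above the lowest. The difference was -0.16 on the log2 scale (SE 0.22, adjusted p = 0.824 in edgeR), with a 95% interval from -35.8% to 24.3%. Itga6 lies on chromosome 2 from 71745616 to 71858416.

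The share of the 3 α subunits was computed within each library from CPM per kilobase of the longest annotated transcript, a measure free of library scaling. Itga7 made up 2.00%, 2.22%, 3.23%, 3.34% and 3.88% of α subunit transcripts in laminin-rich replicates 1 to 5, against 0.734%, 0.890%, 1.70%, 1.78% and 1.41% in collagen I replicates 1 to 5. The groups did not overlap. Even in laminin-rich matrix, Itga7 was a minor α subunit beside Itga6, with 56.7% ± 4.27 of the sum, and Itga3, with 40.4% ± 4.08. In collagen I, Itga6 had 58.7% ± 11.0 and Itga3 40.0% ± 10.6 (SD, n = 5 each). Set against Itga6 alone, the Itga7 level per kilobase was 0.0352 to 0.0722 of it in laminin-rich libraries and 0.0103 to 0.0375 of it in collagen I libraries, ranges that just overlapped.

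**Figure D3:**
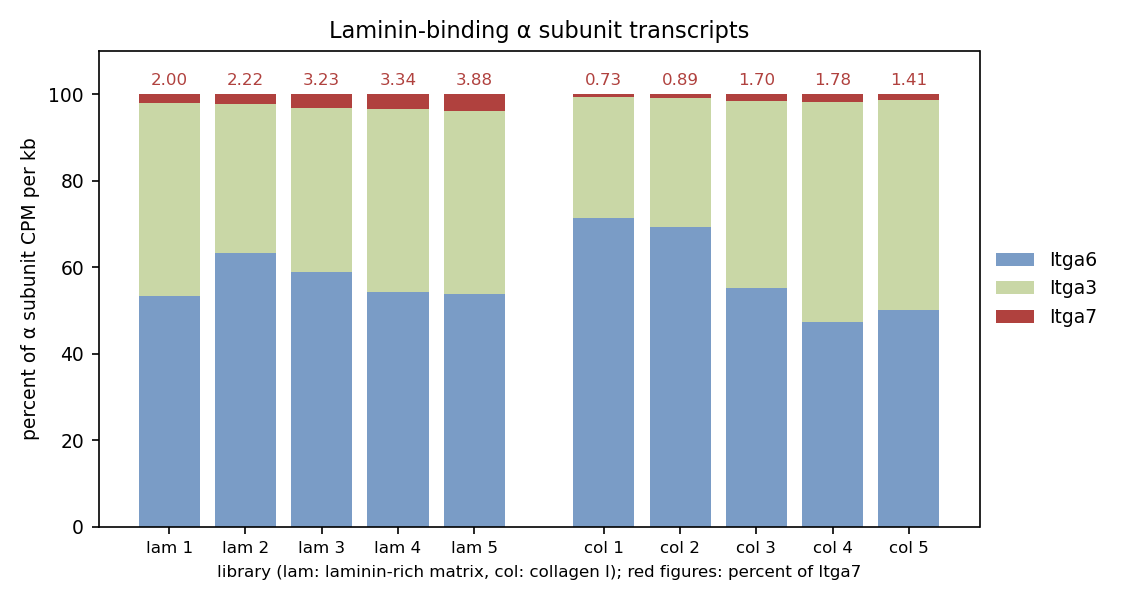
Share of Itga6, Itga3 and Itga7 in the summed CPM per kilobase of the 3 genes (y axis, percent) in each laminin-rich and collagen I library, with the percent of Itga7 printed above the bars. Itga7 takes 2.00% to 3.88% in laminin-rich libraries and 0.734% to 1.78% in collagen I libraries, and the split between Itga6 and Itga3 varies most within collagen I.

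The β subunits showed no matrix difference beyond the spread between libraries. Itgb1, the common partner of α3, α6 and α7, had 1427, 1401, 1252, 1165 and 1310 CPM in laminin-rich replicates 1 to 5, against 1428, 1413, 1279, 1165 and 1221 CPM in collagen I replicates 1 to 5. The 2 sets of values covered the same range. The 95% interval of the difference ran from -13.2% to 17.0% (log2 difference 0.01, SE 0.10, adjusted p = 0.979 in edgeR).

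Itgb4, the hemidesmosomal β subunit, had 106, 117, 114, 88.4 and 124 CPM in laminin-rich replicates 1 to 5, against 97.6, 93.0, 103, 119 and 117 CPM in collagen I replicates 1 to 5. Laminin-rich replicate 4 was the lowest and replicate 5 the highest of all libraries. The difference was 0.05 on the log2 scale (SE 0.12, adjusted p = 0.901 in edgeR), with a 95% interval from -12.8% to 23.2%. Per kilobase, Itgb4 reached 0.0515 ± 0.00553 of the Itgb1 level in laminin-rich matrix and 0.0507 ± 0.00987 of it in collagen I. Itga6 exceeded Itgb4 per kilobase in every library, by 3.62 to 4.89 times in laminin-rich libraries and 2.54 to 7.80 times in collagen I libraries. Itgb1 lies on chromosome 8 from 128685654 to 128733200, and Itgb4 on chromosome 11 from 115974709 to 116008412, where it shares exon sequence with B230344G16Rik on the opposite strand.

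Among the receptors that are not integrins, dystroglycan was the more constant. Dag1 had 625, 513, 531, 524 and 460 CPM in laminin-rich replicates 1 to 5, against 534, 505, 486, 389 and 450 CPM in collagen I replicates 1 to 5. Only laminin-rich replicate 1 stood above the collagen I range. The difference was 0.17 on the log2 scale (SE 0.11, adjusted p = 0.614 in edgeR), with a 95% interval from -5.34% to 32.9%. Dag1 lies on chromosome 9 from 108204634 to 108263958.

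Bcam had 388, 225, 260, 145 and 291 CPM in laminin-rich replicates 1 to 5, against 150, 174, 262, 352 and 278 CPM in collagen I replicates 1 to 5. It varied by more than 2-fold within each matrix, and the group ranges were nearly the same. The 95% interval, from -27.5% to 60.2%, was the widest of the 8 genes on the log2 scale (log2 difference 0.11, SE 0.26, adjusted p = 0.909 in edgeR). Bcam lies on chromosome 7 from 19756131 to 19771016, and its exons overlap Gm26600 on the opposite strand.

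Cd151 had 189, 186, 173, 189 and 206 CPM in laminin-rich replicates 1 to 5, against 155, 148, 198, 279 and 241 CPM in collagen I replicates 1 to 5. As with Itga6, the laminin-rich libraries were close together inside a wide collagen I range, but the collagen I libraries high in Cd151 were those low in Itga6. The difference was -0.12 on the log2 scale (SE 0.16, adjusted p = 0.830 in edgeR), with a 95% interval from -27.7% to 17.6%. Cd151 lies on chromosome 7 from 141467392 to 141471473, and its exons overlap Gm10575 on the opposite strand.

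Per kilobase of transcript, the order of levels in laminin-rich matrix was Itgb1 (344 ± 28.2 CPM per kilobase), Bcam (108 ± 36.6), Cd151 (101 ± 6.44), Dag1 (93.7 ± 10.6), Itga6 (76.0 ± 7.45), Itga3 (54.1 ± 6.78), Itgb4 (17.7 ± 2.18) and Itga7 (3.90 ± 0.949). In collagen I, Cd151 (109.5 ± 29.9 CPM per kilobase) stood before Bcam, and Itga6 (85.0 ± 32.4) before Dag1 (83.6 ± 9.86). The other places were the same, with Itgb1 at 341 ± 30.4, Itga3 at 53.9 ± 5.93, Itgb4 at 17.0 ± 1.85 and Itga7 at 1.74 ± 0.439 CPM per kilobase (all SD, n = 5 each). Itgb1 stood first and Itga3, Itgb4 and Itga7 last in both matrices. The intervals of 1 SD around the means of Bcam, Cd151 and Dag1 overlapped in both matrices. That of Itga6 overlapped all of these in collagen I, and those of Bcam and Dag1 but not Cd151 in laminin-rich matrix.

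Within collagen I, the letter D and letter B libraries did not overlap for 6 of the 8 genes, all but Itga3 and Itga7, and for 59.0% of all genes tested. The differences were largest in size for Itga6, Bcam and Cd151. Itga6 was at 209 and 263 CPM in the letter D libraries and 339 to 529 CPM in the letter B libraries, a mean log2 difference (D minus B) of -0.92. Cd151 was at 241 and 279 CPM in letter D and 148 to 198 CPM in letter B, a difference of 0.64, and Bcam at 278 and 352 CPM in letter D and 150 to 262 CPM in letter B, a difference of 0.72. The D minus B difference was -0.20 for Itgb1, 0.27 for Itgb4, -0.28 for Dag1, 0.08 for Itga3 and 0.09 for Itga7. Of all genes tested, 94.4% had a D minus B difference smaller in size than that of Itga6. Within the laminin-rich group, the largest log2 difference of letter F minus letter E among the 8 genes was that of Itga7, 0.51, with 17.2 and 21.0 CPM in letter F and 11.5 to 16.1 CPM in letter E.

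The same libraries differ in how their counts depend on transcript length. The slope of log2 deviation per doubling of length ran from -0.12 to 0.16 in laminin-rich libraries and from -0.37 to 0.18 in collagen I libraries, and was most negative in both letter D libraries. Of the 8 genes, Cd151 (1865 nt), Bcam (2429 nt) and Itgb4, the longest at 6208 nt, were higher in letter D. Itgb1 (3815 nt), Itga6 (4310 nt) and Dag1 (5662 nt) were lower, and Itga7 (4020 nt) and Itga3 (4861 nt) differed little. The part of transcript length or GC content in these differences was not tested. After the length and GC correction, the D minus B difference was 0.24 for Cd151, 0.32 for Bcam, 0.41 for Itgb4 and -0.77 for Itga6. For Dag1 it went from -0.28 to -0.05 and for Itgb1 from -0.20 to -0.00039. Itga3 and Itga7 gave 0.06 and -0.07 after the correction. The standard deviation of log2 CPM was 0.14 in laminin-rich matrix and 0.57 in collagen I for Itga6, and 0.09 and 0.39 in the same order for Cd151. It was 0.20 and 0.27 for the median gene, and larger in collagen I for 64.1% of all genes tested. After the length and GC correction the median gene had 0.174 in laminin-rich matrix and 0.175 in collagen I. Corrected values were 0.14 and 0.48 for Itga6, and 0.05 and 0.14 for Cd151, in the same order.

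**Figure D4:**
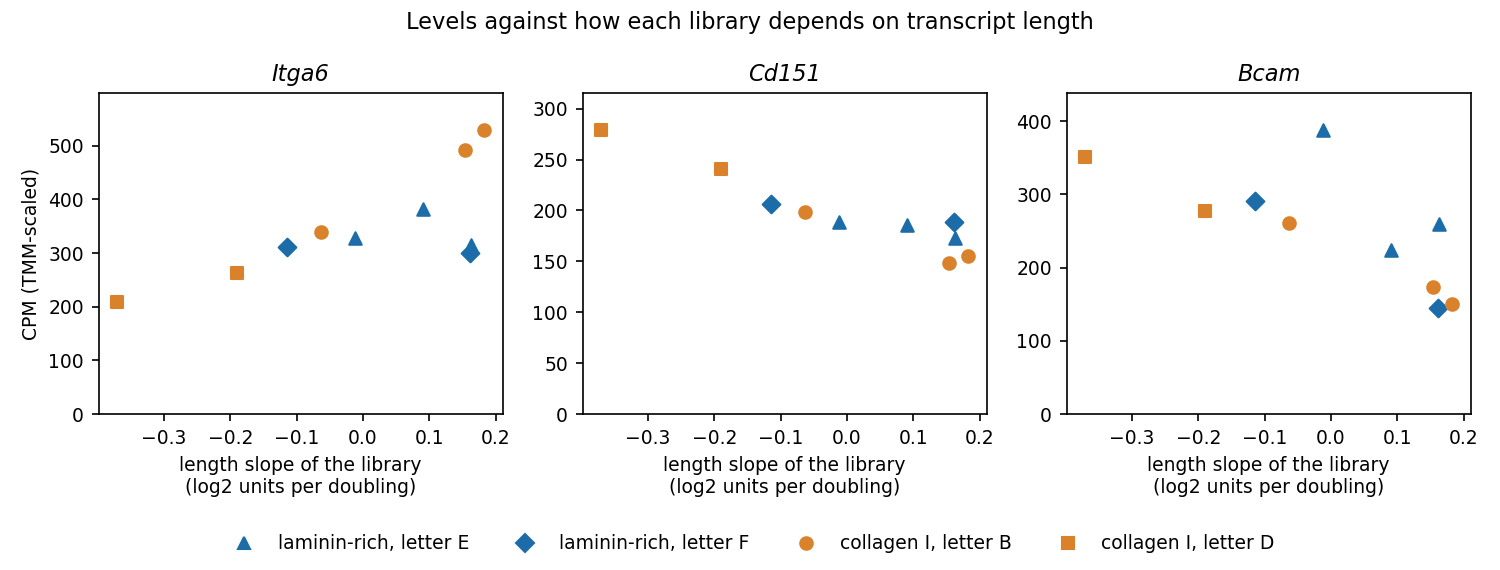
Level of Itga6, Cd151 and Bcam (y axes, CPM from 0) against the slope of each library's log2 deviations on log2 transcript length (x axis, log2 units per doubling), for laminin-rich and collagen I libraries by code letter. The letter D libraries have the most negative slopes, -0.37 and -0.19, the lowest Itga6 levels and the highest Cd151 levels.

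The matrix difference of Itga6 and Cd151 turned on those libraries. Without the letter B libraries, leaving letter D as the only collagen I samples, Itga6 was higher in laminin-rich matrix (log2 difference 0.44, adjusted p = 0.0478 in edgeR) and Cd151 lower (-0.49, adjusted p = 0.0222). Without the letter D libraries the differences were -0.47 for Itga6 and 0.17 for Cd151, neither past the threshold (adjusted p = 0.258 and 0.590). Without letter B, 18.9% of all genes passed. Under the length and GC correction as well, an alternative chosen after seeing the data in which 6.43% of all genes passed, Itga6 gave 0.33 (adjusted p = 0.111) and Cd151 -0.17 (adjusted p = 0.216), and neither passed.

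The tested genes most like Itga7 over the 10 libraries, by Pearson correlation of log2 CPM among 9897 genes with a mean of at least 5 CPM, were Pcx (r = 0.96), Hspa1b (0.93), Atp1b3 (0.93), Coprs (0.93) and Mavs (0.93). Pcx, the mitochondrial enzyme pyruvate carboxylase, passed the test over all genes, at a log2 difference of 0.58 (SE 0.10, adjusted p = 0.0487 in edgeR). Those most like Itga6 were Usp1 (r = 0.98), Aebp2 (0.98), Rsbn1 (0.98), Rybp (0.97) and Dck (0.97). Usp1, a deubiquitinating enzyme, stood at 199 ± 13.7 CPM in laminin-rich matrix and 204 ± 48.3 CPM in collagen I, and like Itga6 it was the more variable in collagen I. The values share libraries and depth, and no test was made.

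The partners of these receptors were read from 8 further lists. No gene of any list passed over all genes, where 0.148% did. Of the other laminin-binding surface molecules (9 of 9 tested), Mcam, a receptor for laminin α4, had the smallest p, at 19.7 ± 4.85 CPM in laminin-rich matrix and 11.4 ± 2.00 CPM in collagen I (SD, n = 5 each), with groups that did not overlap (log2 difference 0.79, SE 0.19, adjusted p = 0.133 in edgeR). Groups without overlap occurred in 3.23% of all genes tested. Itga2, a subunit of a collagen and laminin receptor, was at 19.9 ± 2.11 CPM in laminin-rich matrix and 30.8 ± 13.7 CPM in collagen I. Itga1, of a similar receptor, was at 8.67 ± 3.17 CPM in laminin-rich matrix and 5.52 ± 2.27 CPM in collagen I. The median log2 difference of the list was -0.11.

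On the ligand side, 6 of 11 laminin chains were tested, with a median log2 difference of 0.05. The chain genes with the smallest p were Lamb2 (335 ± 32.1 CPM in laminin-rich matrix and 287 ± 30.2 CPM in collagen I), Lama5 (717 ± 160.2 and 594 ± 46.7 CPM in the same order) and Lamc1 (476 ± 90.7 and 447 ± 82.3 CPM), with adjusted p from 0.432 to 0.866 in edgeR. After the length and GC correction their log2 differences were 0.02, -0.11 and -0.13 in the same order, and the list's median was -0.13. Lama5, Lamb2 and Lamc1 are the chains of laminin 521. The α chains Lama1, Lama2, Lama3 and Lama4 and the γ chain Lamc3 were below the filter. All 8 tested genes of the other basement membrane ligands had a difference above 0, as did 5580 of the 10789 genes tested, with a median of 0.21, but after the length and GC correction 5 of the 8 lay below 0 and the median was -0.09. The smallest p in the uncorrected fit belonged to the collagen IV chains Col4a4 (8.23 ± 3.14 CPM in laminin-rich matrix and 3.94 ± 1.72 CPM in collagen I) and Col4a3 (5.57 ± 1.97 and 3.00 ± 1.51 CPM), and to perlecan, Hspg2 (443 ± 122 and 348 ± 34.8 CPM), with adjusted p from 0.246 to 0.444. After the correction Col4a4 gave 0.78, Col4a3 0.64 and Hspg2 -0.09 on the log2 scale.

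Inside the cell, 4 genes of the hemidesmosome plaque were tested, with a median log2 difference of 0.22, and of 0.01 after the length and GC correction. Plec, the plectin that binds β4 to keratins, was at 391 ± 47.8 CPM in laminin-rich matrix and 340 ± 19.1 CPM in collagen I (log2 difference 0.20, adjusted p = 0.468 in edgeR), and the sign turned after the correction (-0.24). Col17a1, a transmembrane collagen of hemidesmosomes, averaged 0.0600 CPM in laminin-rich matrix and 0.180 CPM in collagen I, and Krt5 had no count in any library. Of the integrin adaptors and activators, 21 were tested and 10 lay above 0, with a median of -0.01. The smallest p belonged to Tln2, a talin that activates integrins (36.2 ± 5.22 CPM in laminin-rich matrix and 26.3 ± 3.10 CPM in collagen I, adjusted p = 0.204), Kank2 (116 ± 5.99 and 92.5 ± 12.8 CPM, adjusted p = 0.279) and Tns1 (223 ± 38.8 and 146 ± 45.9 CPM, adjusted p = 0.295). The groups of Tln2 and of Kank2 narrowly did not overlap, as in 3.23% of all genes tested. Their log2 differences were 0.46 and 0.32, and that of Tns1 was 0.61. After the length and GC correction they were 0.14, 0.16 and 0.32 in the same order. The list's median was then -0.07, with 13 of the 21 genes below 0.

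For dystroglycan, 6 genes of the dystrophin complex were tested, with a median log2 difference of -0.04. Utrn, which encodes utrophin, was at 157 ± 42.0 CPM in laminin-rich matrix and 152 ± 81.7 CPM in collagen I, a log2 difference of 0.04 that turned to -0.16 after the length and GC correction. Dmd, which encodes dystrophin, was at 6.85 ± 1.74 CPM in laminin-rich matrix and 4.58 ± 1.51 CPM in collagen I (log2 difference 0.59, SE 0.26, adjusted p = 0.395 in edgeR). The sarcoglycan Sgcz had no count, and Sgcb had 8.08 ± 1.72 CPM in laminin-rich matrix and 9.52 ± 1.33 CPM in collagen I. The 14 tested enzymes that build the laminin-binding sugar of dystroglycan, or supply its precursors, had a median of 0.03, and of -0.01 after the correction.

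Of the tetraspanins and their partners, 9 were tested, with a median log2 difference of 0.15. Ptgfrn, an immunoglobulin-type partner of tetraspanins, was at 733 ± 104 CPM in laminin-rich matrix and 539 ± 109.7 CPM in collagen I (log2 difference 0.44, SE 0.15, adjusted p = 0.294 in edgeR). Cd9, a tetraspanin like Cd151, was at 442 ± 64.0 CPM in laminin-rich matrix and 366 ± 18.9 CPM in collagen I (adjusted p = 0.348). Several genes described for their roles here, among them Utrn, Sgcb and Col17a1, were picked after their values were seen.

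**Figure D5:**
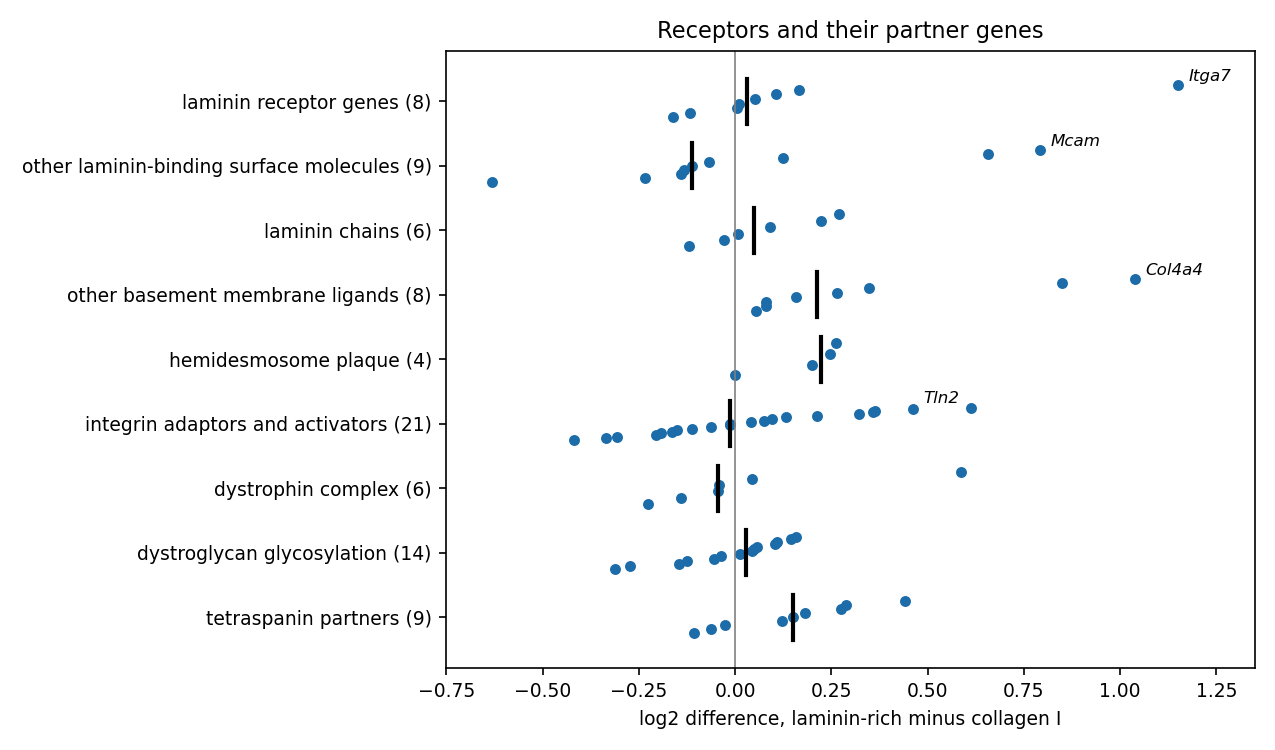
Log2 difference, laminin-rich minus collagen I (x axis), of each tested gene of the receptors and 8 partner lists, with the number tested in brackets. Points are genes, black lines are list medians, and genes with an unadjusted p under 0.01 are named; Itga7 lies farthest from 0, at 1.15, and no gene passed after adjustment.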

How the data were processed

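The deposited table holds whole-number read counts per gene symbol, 1 column per library, with no normalization by the authors. Per the labels' protocols, the libraries were stranded poly(A) mRNA libraries. The submitters' processing notes name GRCm38 (mm10) and DESeq2. The aligner and counter, like the annotation and the use of strand, were not given in the sources used here. Of 18407 genes, 3984 had no count. The 8 genes and all lists were chosen with earlier results of these data known.

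The default filterByExpr rule left 10789 genes, which were scaled with TMM factors and compared by matrix alone with edgeR 4.0.16 (quasi-likelihood F test, two-sided) in R 4.3.3. The 95% interval uses the moderated degrees of freedom. Log2 CPM uses a prior count of 2, and lengths and GC content come from GENCODE M21, matched by symbol for 18338 genes. How cultures were divided is not stated, and p-values reflect only the variation between these libraries. The closest pair of libraries differed beyond sampling noise, so all 10 were kept. From each list the text names up to 3 tested genes with the smallest p, besides genes picked after their values were seen. Some genes of the lists are not reported here. Alternatives were DESeq2 1.42.0, limma 3.58.1 (voom), other scalings and filters, the replicate block, 1 surrogate variable (sva 3.50.0), a spline trend on length and GC content (5 degrees of freedom each) as an offset, and libraries or code letters left out. The steps were tested on simulated data that held no code letter effect and no length or GC trend. Those tests cannot show how the fits handle such effects.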

Additional observations from a re-analysis of the deposited data

How the results depend on the processing

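Itga7 kept a log2 difference above 0 in all 38 alternatives (0.87 to 1.42) and passed in 12 of them; the cause of the changed calls was not tested. It passed in DESeq2 (1.14), with 1 surrogate variable (1.21), with the length and GC offset (1.05), without letter B (1.10), without letter B under the offset (1.12) and without laminin-rich replicate 1. With 1 library left out under the offset it passed in 6 of 10 fits, and not without collagen I replicate 2 or 5 or laminin-rich replicate 3 or 5. Of the 8 genes, 1 passed in each of these settings and 3 without letter B, where Itga6 (0.44) and Cd151 (-0.49) were added and 18.9% of all genes passed, against 4.06% with 1 surrogate variable and 6.43% without letter B under the offset. Over fits without a single library, with or without the offset, the number passing was 0 to 1, and Itga7 gave 0.94 to 1.31.

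Several differences turned in sign, and of those that turned only that of Itga6 without letter B (0.44) passed. Itga3 and Itgb1 gave -0.0052 and -0.00019 in DESeq2, -0.0050 and -0.00012 with DESeq2 size factors, -0.013 and -0.0060 with library totals, -0.018 and -0.013 with no filter, and -0.013 and -0.0078 with the 1 CPM filter. Itgb1 gave -0.012 and Cd151 0.044 with 1 surrogate variable. Itga3 and Itgb4 gave -0.15 and -0.19 with the offset, and -0.15 and -0.19 with the offset and the replicate block. Without letter B, Itga3 gave -0.064, Itgb4 -0.13 and Bcam -0.29. Without letter D, Itgb1 gave -0.067 and Cd151 0.17. Without letter E, Itgb1 gave -0.095, Itgb4 -0.022 and Bcam -0.18, and without letter F Itga3 gave -0.037. Under the offset, chosen together with the letters after seeing the data, Itga3 gave -0.19, -0.13, -0.13 and -0.16 without letters B, D, E and F, and Itgb4 gave -0.43, -0.016, -0.24 and -0.16. There, Itga6 gave 0.33 and Bcam -0.073 without letter B, and Cd151 0.073 without letter D. Without letter E, Itgb1 gave -0.062, Dag1 -0.074 and Bcam -0.23. Over fits without a single library, with or without the offset, the ranges were -0.21 to 0.056 for Itga3, -0.033 to 0.065 for Itgb1, -0.26 to 0.10 for Itgb4, -0.052 to 0.21 for Dag1, -0.079 to 0.28 for Bcam and -0.24 to 0.019 for Cd151.

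Over all genes, 16 passed in edgeR. The number was 209 in DESeq2, 29 with no filter, 438 with 1 surrogate variable, 102 with the offset, 2083, 5, 1 and 5 without letters B, D, E and F, and 708, 9 and 96 without letters B, E and F under the offset. It ran from 0, without collagen I replicate 3 or 5 or laminin-rich replicate 2 (1167, 939 and 977 at an unadjusted p under 0.05), to 64 without a single library, and from 17 to 275 under the offset.

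The shared replicate numbers showed no consistent pairing: deviations of same-numbered libraries correlated at -0.31, 0.26, -0.11, -0.33 and 0.48 for replicates 1 to 5. These values cannot exclude that same-numbered libraries shared a culture, and the main fit did not pair them. With the replicate block, 0 genes passed over all genes (1049 at an unadjusted p under 0.05), and Itga7 gave 1.16 (adjusted p = 0.160 in edgeR). The 33 to 115 reads per library limit the precision of Itga7.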

Other observations

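After the length and GC correction, 3 partner genes passed beside Itga7, in a fit where 0.945% of all genes passed. Itga2, the collagen and laminin receptor subunit, gave a log2 difference of -0.73 (SE 0.16, adjusted p = 0.0459 in edgeR). Dst, which encodes dystonin and is in the hemidesmosome plaque list, gave -0.38 (SE 0.08, adjusted p = 0.0459 in edgeR). Counts per gene cannot tell its splice forms apart. Cd9, the tetraspanin, gave 0.42 (SE 0.09, adjusted p = 0.0401). In the uncorrected fit Dst stood at 105 ± 39.5 CPM in laminin-rich matrix and 105 ± 40.5 CPM in collagen I (SD, n = 5 each), a log2 difference of -0.00031. The correction ignores the matrix labels, so a matrix effect that depended on length or GC content would be taken out with it.

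In the same corrected values, Itgb1 was spread over 1137 to 1448 CPM in laminin-rich libraries, but stood at 1306, 1288, 1298, 1293 and 1300 CPM in collagen I replicates 1 to 5. Read sampling alone, at 5726 to 10518 reads per collagen I library, would be expected to spread these values more. Their closeness therefore cannot show a steadier level in collagen I. Before the correction, Itgb1 covered 1165 to 1427 CPM in laminin-rich libraries and 1165 to 1428 CPM in collagen I libraries. Corrected Itga6 still ranged from 285 to 372 CPM in laminin-rich libraries and from 235 to 507 CPM in collagen I libraries.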
